A study of Papio anubis with 60 samples.

Results

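Shared distal H3K27ac regions without H3K4me3 are stretches of the baboon autosomes that carried acetylated histone H3 in both kinds of pluripotent cell and no H3K4me3 in either. To find them, the H3K27ac peaks of iPSC (induced pluripotent stem cells, which come from reprogrammed somatic cells) and ESC (embryonic stem cells) on chromosomes 1 to 20 were merged where they overlapped. A merged region was kept if it held peaks of both cell types, overlapped no H3K4me3 peak of either, and lay over 1 kb from every H3K4me3 domain. The domains were made by joining the H3K4me3 peaks of both lists within 1 kb and keeping stretches of 2 kb or more, of which there were 30730. The rule kept 54230 of 426893 autosomal regions (12.7%), and 441180 regions were merged over the whole series. With firm peaks alone (−log10 q of at least 5) it kept 24070, and 34451 when the ESC list was cut to the length of the iPSC list. These regions were chosen by the measured positions of H3K27ac and H3K4me3 peaks, so their sharing and their lack of H3K4me3 are not findings. H3K27me3, H3K9me3, summit positions and the state of neighbouring domains did not enter the rule directly. By leaving out the domains, however, the rule also left out the H3K27me3 and H3K9me3 that lie on them. The overlap of peaks limits the distance between summits, and the acetylation of domains is read from the same H3K27ac lists.

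H3K27ac is placed on nucleosomes beside active promoters and active enhancers by the acetyltransferases p300 and CBP. H3K4me3 is concentrated at promoters, so acetylation away from it is the usual chromatin sign of an enhancer, a sequence that raises transcription of a gene at a distance. In pluripotent cells many enhancers are bound by OCT4, SOX2 and NANOG, while enhancers of later lineages can be held silent under H3K27me3, the mark of Polycomb complexes. H3K9me3 marks constitutive heterochromatin and silenced repeats.

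The iPSC were of lines 160-2 and M14939#3 and the ESC of lines B4 and B15 of the olive baboon, Papio anubis, and per the labels both kinds were cultured on a layer of feeder cells. Chromatin of 50000 cells per library was cut with micrococcal nuclease and precipitated with antibodies against H3K27ac, H3K4me3, H3K27me3 and H3K9me3. For each cell type and mark the labels give 6 libraries, 3 of each line, and 1 peak list was analysed, so a list has no replicates and no library could be left out. Cell type and line cannot be told apart, the age and sex of the donors are not among the labels used here, and cell identity was not checked against marker genes, since the lists were not joined to genes. The autosomal H3K27ac lists held 213657 peaks in iPSC and 376101 in ESC, which covered 2.10% and 3.95% of the 2594 Mb of autosomes. The number of reads behind a list is unknown, and the number of peaks that pass a caller's threshold depends on it.

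As a description of the classes and not a finding, acetylated regions without H3K4me3 were less often in both lists than those with it. Among distal regions free of H3K4me3, 62.2% of those in the iPSC list (95% Wilson interval 61.8 to 62.5) and 28.0% of those in the ESC list (27.8 to 28.2) were in both. Where a distal region overlapped a small H3K4me3 peak, 82.2% in iPSC (82.0 to 82.5) and 54.6% in ESC (54.3 to 54.9) were in both. Within 1 kb of a domain the shares were 86.0% and 58.5%. These shares describe the classes that the rule separates. A region merged from both lists is at least as wide as each of its peaks, and a wider region meets a H3K4me3 peak more easily. Without H3K4me3, the median width was 256 bp for shared distal regions, 169 bp for iPSC only and 184 bp for ESC only. Part of the contrast is thus built into the merging, and how much was not tested. Neighbouring regions share chromatin context and are not independent, and the intervals cover no more than counting error. No test was made of any difference between classes or cell types.

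**Figure D1:**
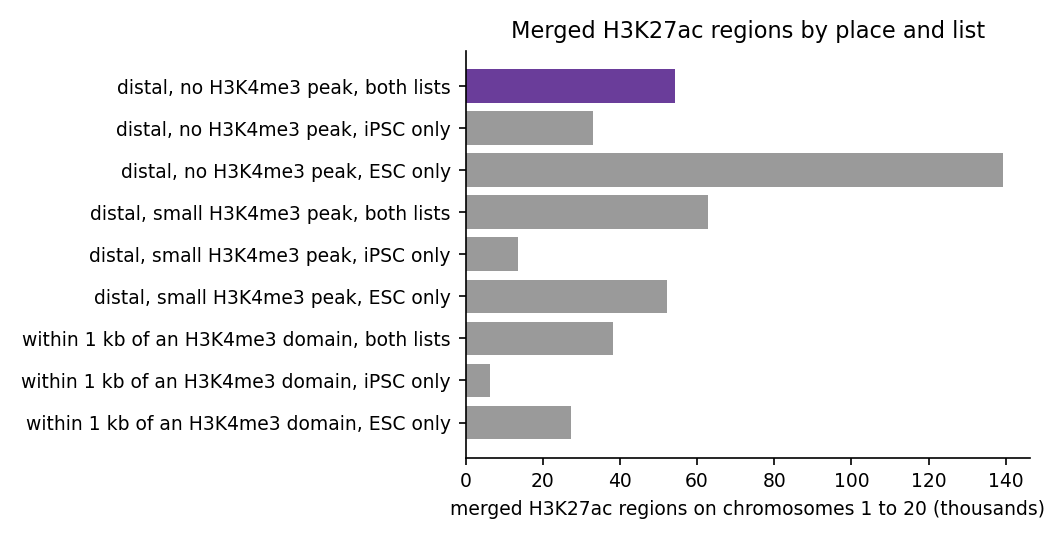
The bars count merged H3K27ac regions on chromosomes 1 to 20 (axis in units of 1000) by place (distal without H3K4me3, distal with a small H3K4me3 peak, within 1 kb of an H3K4me3 domain) and by the list that held them. The purple bar is the 54230 shared distal regions without H3K4me3. The longest bar, 139240 regions, is distal H3K27ac of ESC only without H3K4me3.

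The regions were short and simple. Their median width was 256 bp (95% order-statistic interval 255 to 258), with 5% under 164 bp and 5% over 562 bp, and the widest spanned 2996 bp. Of the 54230, 13333 were under 200 bp, 21589 were 200 to under 300 bp, 15077 were 300 to under 500 bp, 3980 were 500 to under 1000 bp, and 251 were 1000 bp or more. In 98.6% a single iPSC peak met a single ESC peak. The iPSC peaks covered a median of 193 bp of a region and the ESC peaks 224 bp, and ESC covered more base pairs than iPSC in 66.9% of the regions. At least 50% of the width was covered by both lists in 83.3% of regions. Shared distal regions with a small H3K4me3 peak were wider, with a median of 315 bp, and one-sided distal regions without H3K4me3 were narrower, with 169 bp for iPSC only and 184 bp for ESC only. A merged region of 2 lists can only be as wide as or wider than each of its peaks, so part of the last difference follows from the merging. All 54230 together spanned 16.1 Mb, 0.620% of the autosomes.

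Peak height was moderate in both lists. The strongest peak of a region had a median fold enrichment over background, the value of the authors' peak caller, of 2.76 in iPSC (5th to 95th percentile 1.94 to 4.09) and 2.98 in ESC (2.01 to 4.49). Shared distal regions with a small H3K4me3 peak had medians of 3.04 and 3.36, and shared regions within 1 kb of a domain 3.28 and 3.70. One-sided distal regions without H3K4me3 had 2.70 for iPSC only and 2.72 for ESC only. Within its own list, the strongest peak fell in the lowest 20% by fold in 24.6% of regions in iPSC and 17.9% in ESC, and in the highest 20% in 12.9% and 19.6%. A −log10 q of at least 5, here called firm, was reached by 52.6% of the regions in iPSC, 72.6% in ESC and 44.4% in both. Close to the lowest deposited value, 4.91% in iPSC and 1.74% in ESC had a −log10 q under 2. Regions high in one list tended to be high in the other. Across the 54230 regions, Spearman's rho between the iPSC and ESC fold was 0.437 and Pearson's r 0.453. In shared distal regions with a small H3K4me3 peak these were higher, at 0.496 and 0.578. Each point shares its place in the genome, and with it mappability and base composition, between the lists.

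The summits of both cell types lay close together. The median distance from the strongest iPSC summit to the nearest ESC summit was 20 bp (95% order-statistic interval 20 to 20). It was at most 10 bp in 32.7% of regions, at most 50 bp in 76.2% and at most 100 bp in 88.8%, while 5% exceeded 186 bp. The offset was the same in shared distal regions with a small H3K4me3 peak, at 20 bp, and within 1 kb of a domain, at 21 bp. Overlap of the peaks limits the distance in all 3 classes.

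**Figure D2:**
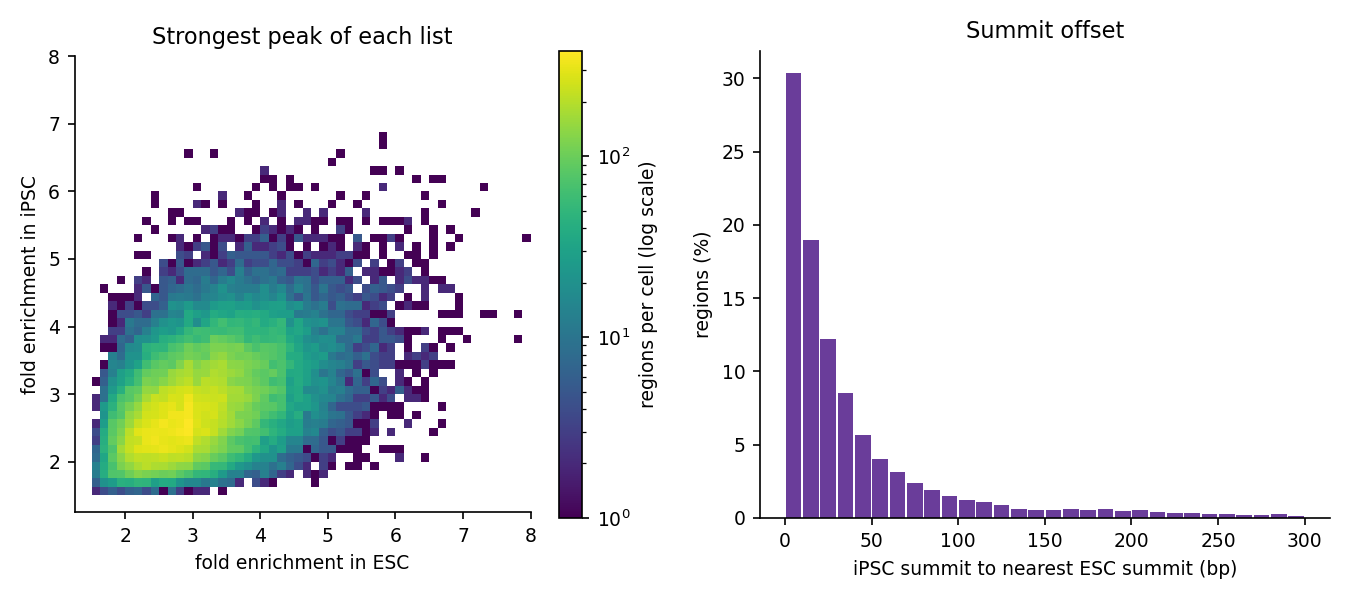
Left, the number of shared distal regions without H3K4me3 per cell of a grid of fold enrichment of the strongest iPSC peak (vertical axis) and the strongest ESC peak (horizontal axis), with colour on a log scale. Right, the share of regions in percent by the distance in bp from the iPSC summit to the nearest ESC summit, in steps of 10 bp up to 300 bp. The offsets pile up near 0, with a median of 20 bp.

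A higher fold went with narrower regions, closer summits and a longer way to the nearest H3K4me3 domain. The regions were ranked by the lower of their percentiles of fold within the iPSC and ESC lists and split into 5 equal groups of 10846. From the weakest group to the strongest, the median width was 285, 275, 259, 238 and 212 bp, and the median summit offset 34, 25, 21, 17 and 13 bp. The median distance to a domain was 26.4, 28.0, 31.3, 34.4 and 40.5 kb in the same order. The share with another such region within about 13 kb hardly varied, from 57.1% to 58.2%. Spearman's rho of fold with width was −0.255 in iPSC and −0.115 in ESC. In shared distal regions with a small H3K4me3 peak these values were 0.00795 and 0.127. With −log10 q in place of fold the relation to width was weaker in the regions without H3K4me3, with rho −0.181 in iPSC and −0.0192 in ESC.

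The 10 regions with the highest lower percentile, between 98.1 and 99.0, had a fold of 5.57 to 6.31 in iPSC and 5.96 to 7.32 in ESC. None of the 10 overlapped H3K27me3 or H3K9me3 in either list, as was the case for 91.6% of all 54230, and their distances to a domain ran from 1.79 to 231 kb. The top one, at 135834350 to 135834843 of chromosome 6, was 494 bp wide with a fold of 6.19 in iPSC and 6.61 in ESC, and lay 2.42 kb from a domain. A 222 bp region at 61875552 to 61875773 of chromosome 17 had summits 3 bp apart, with a fold of 6.16 in iPSC and 6.63 in ESC, and the nearest H3K4me3 peak was 22.9 kb away. At 144811571 to 144811946 of chromosome 3 the fold was 6.07 in iPSC and 7.32 in ESC, and at 45906136 to 45906330 of chromosome 9 it was 5.94 and 6.49. Both regions had summits within 7 bp of each other. The region at 157033532 to 157033813 of chromosome 5, with a fold of 6.31 in iPSC and 6.06 in ESC, was 231 kb from any domain. The remaining 5 lay at 114734675 to 114734861 and 15307584 to 15308139 of chromosome 6, 16494900 to 16495116 of chromosome 15, 142871104 to 142871453 of chromosome 3 and 1122914 to 1123194 of chromosome 11. No source used here names the genome build of these coordinates. The 10 came from 7 chromosomes and were 187 to 556 bp wide, so the highest peaks were not the widest.

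In each of the 5 widest regions 1 long ESC peak met shorter iPSC peaks. The widest, at 1659920 to 1662915 of chromosome 15, was 2996 bp, of which 3 iPSC peaks covered 1412 bp and 1 ESC peak all. The next, at 1394331 to 1396568 of chromosome 1, was 2238 bp with 1065 bp covered in iPSC and all in ESC, and H3K27me3 of ESC lay over 19.7% of it. The others were 2098 bp at 877701 to 879798 of chromosome 19, 2043 bp at 70095056 to 70097098 of chromosome 16 and 1910 bp at 71648189 to 71650098 of chromosome 20. The one on chromosome 20 had 305 bp covered in iPSC and 1910 bp in ESC. All 5 lay between 3.48 and 24.1 kb from a domain.

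Polycomb H3K27me3 was rare on the shared distal regions. A H3K27me3 peak overlapped 511 of 54230 in iPSC (0.942%, 95% Wilson interval 0.864 to 1.03) and 202 in ESC (0.372%, 0.325 to 0.427). Of all merged autosomal H3K27ac regions, 4.22% in iPSC and 2.28% in ESC overlapped it. By autosome the share was 0.928% ± 0.276 in iPSC and 0.388% ± 0.167 in ESC (SD over 20 autosomes). H3K27me3 covered 0.595% of the base pairs of the regions in iPSC and 0.220% in ESC, against 3.47% and 2.08% of the autosomes, a ratio of 0.171 in iPSC and 0.106 in ESC. When only firm H3K27me3 peaks (here a −log10 q of at least 2) counted, the shares were 0.299% in iPSC and 0.107% in ESC, and with at least 50% of a region covered the ESC share was 0.227%. All merged regions and the autosomes include the H3K4me3 domains and their surroundings, which the rule leaves out. Firm H3K27me3 lay on 33.6% of all domains in iPSC and 31.3% in ESC. Part of the H3K27me3 in both backgrounds thus lay where the rule allows no region.

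Other distal classes bore iPSC H3K27me3 more often, while in ESC the one-sided regions differed little from the shared ones. In shared distal regions with a small H3K4me3 peak the shares were 3.72% in iPSC and 1.92% in ESC, above those of the regions without H3K4me3 on 20 of 20 autosomes for both lists. In distal regions of iPSC only without H3K4me3 they were 1.47% and 0.427%, and in those of ESC only 1.88% and 0.448%. The iPSC H3K27me3 share was higher in iPSC-only regions on 20 autosomes and in ESC-only regions on 16. For ESC H3K27me3 it was higher on 14 in each of these classes. The intervals of the iPSC-only class, 0.362 to 0.503, and of the ESC-only class, 0.414 to 0.485, overlapped that of the shared regions. These intervals cover counting error alone, so their overlap is not a test of a difference. The order in iPSC was the same among regions of like width. Among regions of 200 to under 300 bp, 0.862% of the shared regions without H3K4me3 bore iPSC H3K27me3, against 2.69% of those with a small H3K4me3 peak, 1.65% of iPSC only and 1.98% of ESC only.

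The H3K27me3 that was there was mostly in short stretches. In both lists it lay on 15 regions, 2.94% of those with it in iPSC and 7.43% of those with it in ESC, and 0 were fully covered in both. Over all merged autosomal H3K27ac regions, 3913 bore it in both lists, 21.7% of those with it in iPSC and 40.3% of those with it in ESC. Of these 15, chosen after their values were seen, the region with the highest fold in ESC lay at 4146919 to 4147110 of chromosome 5, with a fold of 3.73 in iPSC and 5.34 in ESC, H3K27me3 over 80.2% and 59.4%, and H3K9me3 over 77.1% and 80.2%. After H3K27me3 peaks were joined within 3 kb, the stretch that touched a region had a median length of 542 bp in iPSC and 400 bp in ESC, and it reached 10 kb in 9.20% of cases in iPSC and 2.97% in ESC. H3K9me3 of iPSC lay on 340 of the 511 regions with iPSC H3K27me3 (66.5%), and H3K9me3 of ESC on 36 of the 202 with ESC H3K27me3 (17.8%). No such share over all merged H3K27ac regions was at hand. It cannot be said whether these shares are particular to the shared distal regions.

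H3K9me3 was more frequent than H3K27me3 and more frequent in the ESC list. It overlapped 1627 of the 54230 in iPSC (3.00%, 95% Wilson interval 2.86 to 3.15) and 3813 in ESC (7.03%, 6.82 to 7.25), where 5.51% and 8.75% of all merged autosomal H3K27ac regions overlapped it. Covered base pairs made 2.01% of the regions in iPSC and 5.11% in ESC, against 6.96% and 8.46% of the autosomes, a ratio of 0.288 in iPSC and 0.604 in ESC. The gap between the lists was wider on these regions than over the autosomes, as it was in the other distal classes compared here. In iPSC and ESC, H3K9me3 covered 3.43% and 6.82% of ESC-only regions without H3K4me3 and 3.57% and 5.56% of iPSC-only ones. Of shared distal regions with a small H3K4me3 peak it covered 3.81% and 6.34%. With firm H3K9me3 peaks alone (−log10 q of at least 2) the overlap of the shared distal regions without H3K4me3 was 1.73% in iPSC and 4.82% in ESC. The 1164 regions with H3K9me3 in both lists were 71.5% of those with it in iPSC (69.3 to 73.7) and 30.5% of those with it in ESC (29.1 to 32.0). Over all merged autosomal H3K27ac regions these shares were 67.2% and 42.3%. In all, 91.6% of the shared distal regions bore neither H3K27me3 nor H3K9me3 in either list. No such share over all merged regions was at hand, but there each mark of each list overlapped 8.75% or less. Lack of both marks is thus not read as particular to the shared distal regions.

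Set beside the other distal classes, the iPSC share was the lowest. The ESC share was close to that of iPSC-only regions, and their order changed with the settings. In iPSC, H3K9me3 lay on 6.0% of shared distal regions with a small H3K4me3 peak, 4.49% of iPSC-only and 4.37% of ESC-only regions without H3K4me3, each above the shared regions without H3K4me3 on 20 of 20 autosomes. In ESC the shares were 9.35%, 6.91% and 8.61%, and iPSC-only regions were above on 9 autosomes. The iPSC-only interval, 6.64 to 7.19, overlapped that of the shared regions without H3K4me3. Such intervals treat neighbouring regions as independent, which they are not, so the overlap is not a test of a difference. The order of the shared and iPSC-only regions turned with firm H3K27ac peaks (7.13% against 7.28%) and firm H3K9me3 peaks (4.82% against 4.91%). It also turned with 50% cover (5.64% against 5.96%). Between the weakest and strongest of the 5 groups by height, the ESC share was 8.11% and 6.28%, and the iPSC share 2.76% and 3.16%. H3K9me3 stretches that touched a region, joined within 3 kb, had a median of 1137 bp in iPSC and 1568 bp in ESC. They were under 1 kb in 47.8% and 41.5% of cases and reached 10 kb in 8.42% and 6.08%.

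**Figure D3:**
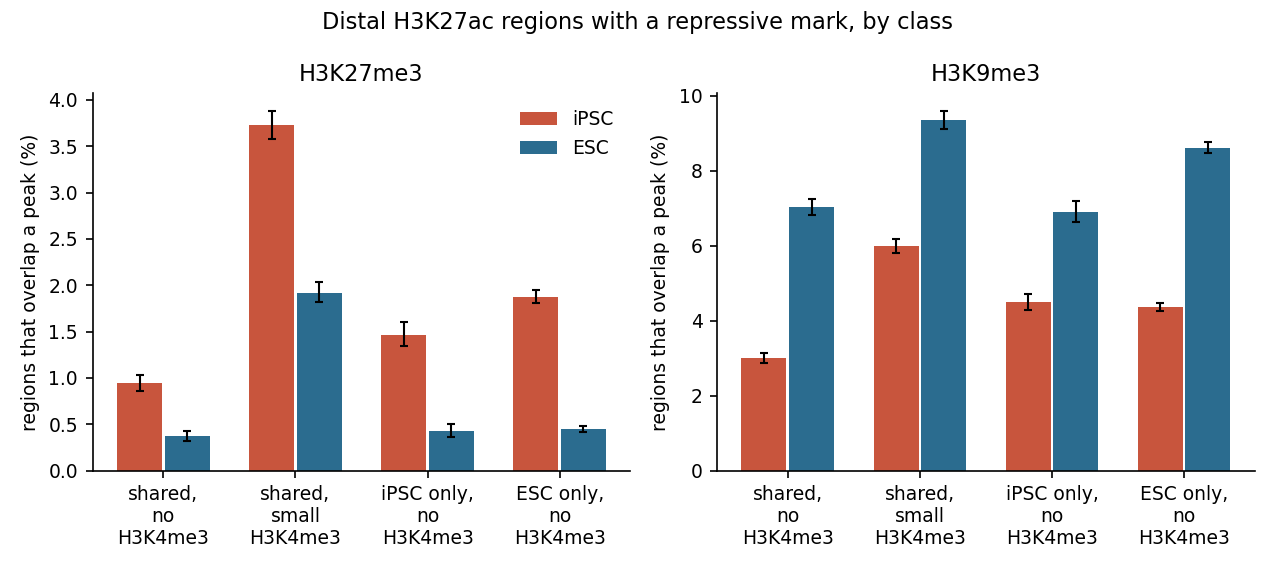
Bars give the percent of regions that overlap a H3K27me3 peak (left) or a H3K9me3 peak (right) of iPSC and ESC, in 4 classes of distal H3K27ac region, and lines are 95% Wilson intervals. Shared regions without H3K4me3 have the lowest bars of each list except for H3K9me3 in ESC. There the bars of the shared and iPSC-only classes are close (7.03% and 6.91%). The intervals cover counting error alone and are not a test between classes.

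Chromosome 19 was the extreme for H3K9me3. It had the highest H3K9me3 coverage of the autosomes, 15.6% in iPSC and 16.2% in ESC, yet the lowest ESC share of shared distal regions with H3K9me3, 2.11%, and 1.52% in iPSC. The highest ESC shares were 10.02% on chromosome 17, 9.97% on chromosome 18 and 9.08% on chromosome 5. In iPSC the range ran from 1.34% on chromosome 16 to 4.34% on chromosome 5. Over the 20 autosomes the mean was 2.87% ± 0.833 in iPSC and 6.78% ± 2.16 in ESC (SD).

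Both repressive marks thinned out over several kb on either side of a region, and H3K9me3 had a small maximum at the centre. H3K27me3 of iPSC covered 2.38% of the sequence 20 to 50 kb from the centre, 1.73% at 5 to 10 kb, 0.741% at 1 to 2 kb and 0.342% at 0.2 to 0.5 kb. For ESC the values were 1.39%, 0.696%, 0.187% and 0.128%. H3K9me3 of iPSC covered 4.98%, 4.33%, 2.34% and 1.15% at these distances, and that of ESC 6.93%, 6.16%, 3.67% and 2.60%. All of these values lie under the autosomal coverage. Within 0.2 kb of the centre the coverage was higher than at 0.2 to 0.5 kb in all 4 lists, with H3K27me3 over 0.536% in iPSC and 0.202% in ESC, and H3K9me3 over 1.89% in iPSC and 4.55% in ESC.

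Regions of 1 list had such a decline as well. At 0.5 to 1 kb from ESC-only regions without H3K4me3, H3K9me3 covered 2.74% in iPSC and 3.74% in ESC, and 5.85% and 7.47% at 20 to 50 kb. For the shared regions without H3K4me3 the values were 1.41% and 2.59% at 0.5 to 1 kb. The rise at the centre was also there in the ESC-only regions, at 3.14% in iPSC and 5.85% in ESC. What lies behind the rise at the centre was not tested.

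H3K27ac itself stayed above its autosomal level far from the regions, as it did around the other distal classes. The regions were chosen from these same H3K27ac lists. At 1 to 2 kb it covered 3.96% in iPSC and 7.74% in ESC. At 20 to 50 kb it still covered 3.13% and 5.90%, against 2.10% and 3.95% of the autosomes. At 20 to 50 kb from shared distal regions with a small H3K4me3 peak it covered 3.05% in iPSC and 5.41% in ESC. Around iPSC-only regions without H3K4me3 it was 2.66% and 4.56%, and around ESC-only ones 2.70% and 5.47%. H3K4me3 was kept from the centre by the rule. It came back to about its autosomal coverage, 5.42% in iPSC and 5.20% in ESC, with 5.68% and 5.17% at 5 to 10 kb and 5.94% and 5.45% at 10 to 20 kb.

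**Figure D4:**
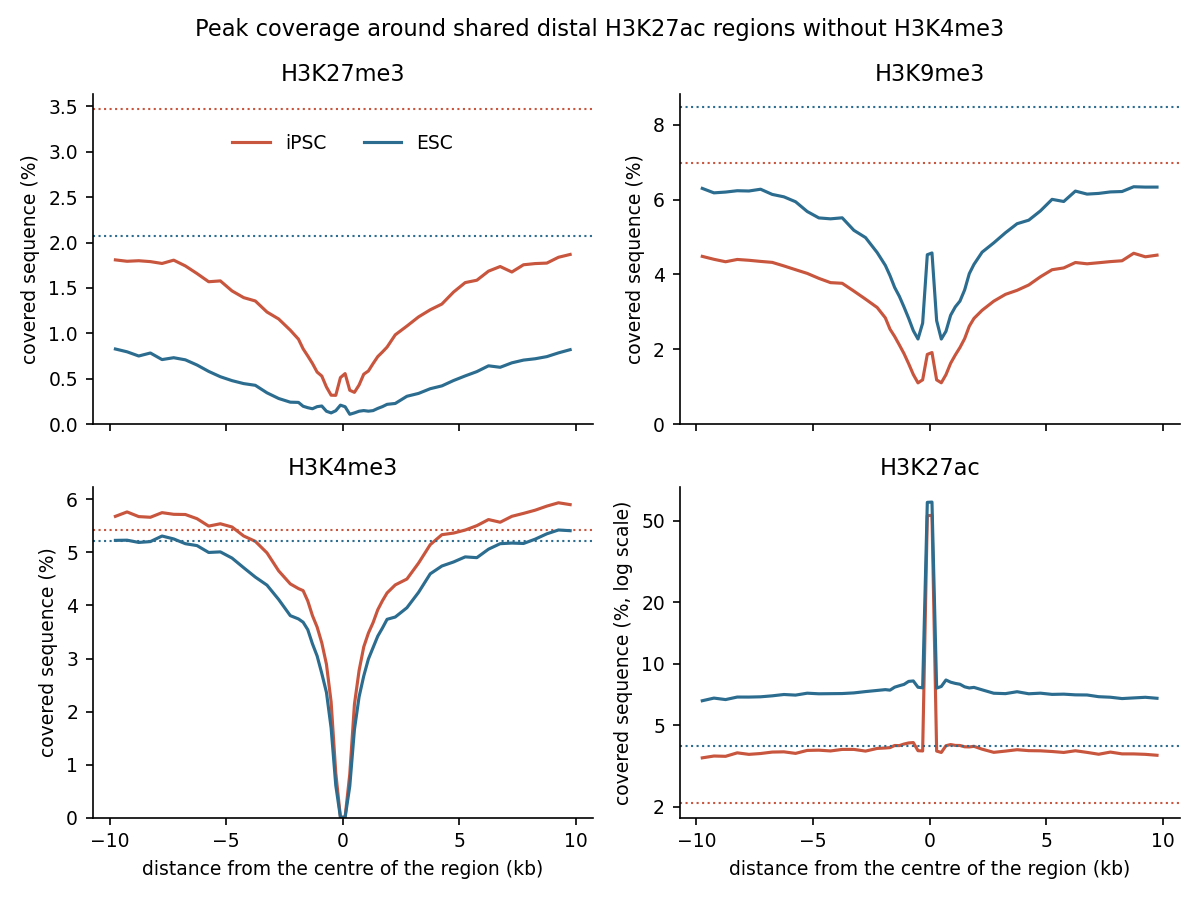
Percent of sequence covered by peaks of each mark in iPSC and ESC, by distance in kb from the centre of the shared distal regions without H3K4me3, with dotted lines for the coverage of all autosomes (the H3K27ac axis is a log scale). H3K27me3 and H3K9me3 decline towards the centre, where H3K9me3 of ESC has a narrow maximum (4.55% within 0.2 kb), and H3K4me3 is excluded at the centre by the rule.

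The nearest H3K4me3 peak of either list, whether small or part of a domain, was a median of 2.99 kb away. It was within 500 bp for 10.7% of regions, within 1 kb for 21.1%, within 5 kb for 65.3% and within 10 kb for 83.6%. The 11418 within 1 kb were by the rule next to stretches under 2 kb, and they had a median fold of 2.77 in iPSC and 3.00 in ESC, close to all regions. No such distances for other regions were at hand. At 1 to 2 kb from the centre H3K4me3 covered 3.95% in iPSC and 3.42% in ESC. At 2 to 5 kb it covered 4.96% and 4.38%, under the autosomal 5.42% and 5.20%.

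H3K4me3 domains, used here in place of promoters, were a median of 31.8 kb away (31.3 to 32.2). A domain lay within 10 kb of 21.1% of regions, within 50 kb of 63.1% and within 100 kb of 80.3%, and the farthest region was 1394 kb from one. Per Mb of sequence at a given distance, the regions were densest near domains. There were 27.1 per Mb at 1 to 2 kb, 25.7 at 10 to 20 kb, 20.8 at 50 to 100 kb and 13.1 beyond 500 kb. Shared distal regions with a small H3K4me3 peak had a steeper slope, with 44.7, 31.1, 21.7 and 12.6 per Mb. Regions of iPSC only without H3K4me3 had 14.5, 14.7, 13.7 and 7.71 per Mb, flat up to 50 kb. Those of ESC only had 68.5, 65.4, 52.4 and 39.8 per Mb.

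The nearest domain of a shared distal region was more often acetylated than domains in general. It bore firm H3K27ac in 65.0% of cases in iPSC (95% Wilson interval 64.5 to 65.4) and in 79.4% in ESC (79.1 to 79.7), while 54.6% of all domains bore it in iPSC and 71.1% in ESC. Counted once each, the 16602 domains that were nearest to at least 1 region were acetylated in 61.4% in iPSC and 76.9% in ESC. The share was lower at longer distances. For regions 1 to 10 kb away it was 69.2% in iPSC and 84.9% in ESC, and for those over 200 kb away 59.5% and 72.5%. Firm H3K27me3, here a −log10 q of at least 2, lay on the nearest domain in 26.8% of cases in iPSC and 23.0% in ESC, against 33.6% and 31.3% of all domains, and for regions 1 to 10 kb away in 19.5% and 16.7%.

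This tendency was shared by the other distal classes. The nearest domain was acetylated for 64.1% of shared distal regions with a small H3K4me3 peak in iPSC and 77.8% in ESC. For iPSC-only regions the shares were 64.4% and 77.0%, and for ESC-only regions 59.6% and 75.6%. The acetylation of domains and the regions were read from the same H3K27ac lists and are not independent measures.

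Seen from the domains, those with Polycomb and no acetylation had the fewest shared distal regions nearby. Of domains with firm H3K27ac and no firm H3K27me3, 83.5% in iPSC and 81.5% in ESC had a region within 50 kb, and 38.6% and 36.7% within 10 kb. Of domains with firm H3K27me3 and no firm H3K27ac, 58.4% in iPSC and 58.0% in ESC had one within 50 kb, and 13.7% and 12.7% within 10 kb. Domains with both marks had one within 50 kb in 75.5% of cases in iPSC and 72.5% in ESC, and domains with neither in 72.9% and 68.4%. The mean number of regions within 50 kb was 3.01 ± 2.95 for acetylated domains without H3K27me3 and 1.45 ± 2.00 for H3K27me3 domains without acetylation in iPSC, and 2.85 ± 2.85 and 1.40 ± 1.90 in ESC (SD over domains). The spread between domains of 1 state was larger than the difference. The H3K27me3 domains were also wider, with medians of 3593 bp against 2977 bp in iPSC and 3634 against 2908 bp in ESC. The acetylation of these domains was read from the same H3K27ac lists as the regions. No such counts around domains for all merged H3K27ac regions or the other distal classes were at hand. It cannot be said whether the contrast between domain states is particular to the shared distal regions.

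**Figure D5:**
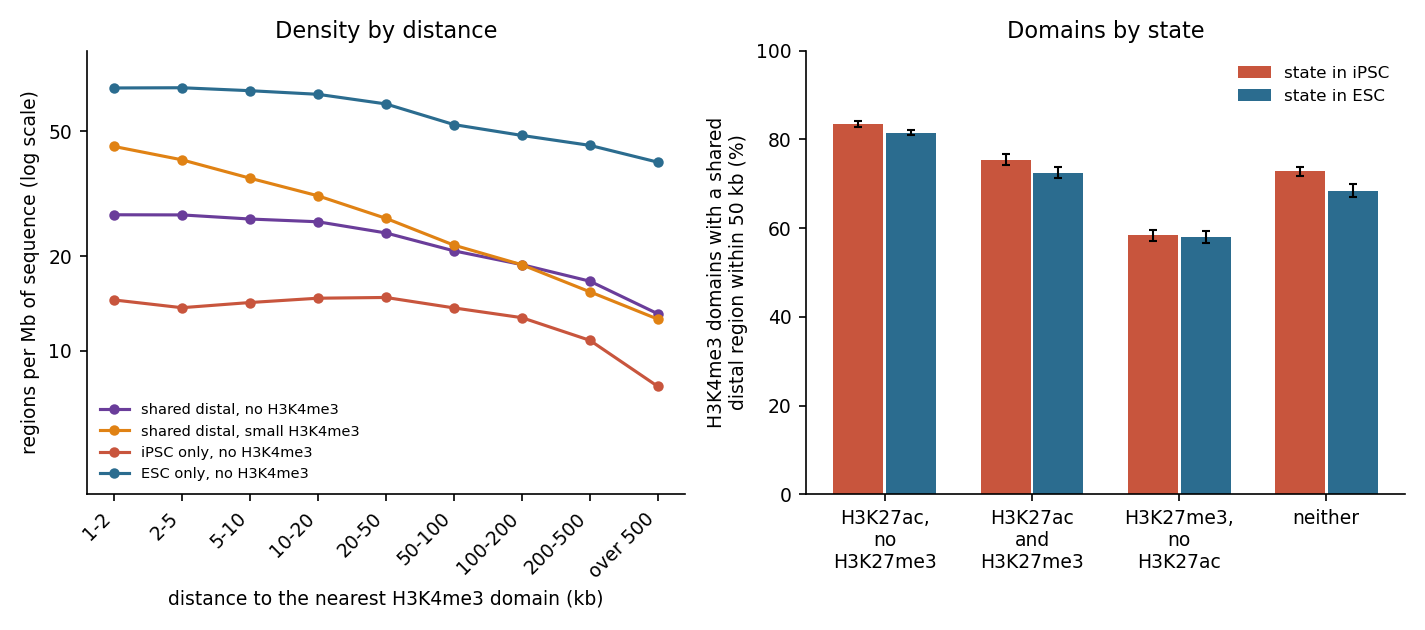
Left, regions per Mb of sequence (log scale) by distance to the nearest H3K4me3 domain in kb, for 4 classes of distal H3K27ac region. Right, the percent of H3K4me3 domains with a shared distal region without H3K4me3 within 50 kb, by the marks on the domain in iPSC and ESC, with 95% Wilson intervals. Domains with H3K27me3 and no H3K27ac have the lowest bars (58.4% and 58.0%).

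Most regions had company. The gap to the nearest other shared distal region without H3K4me3 had a median of 9.16 kb, was at most 1 kb for 13.0% of regions, and was within a stitching distance of about 13 kb, which is widely used to join enhancers into super-enhancers, for 57.7% (57.3 to 58.1). When regions within the stitching distance were joined, 33586 chains resulted, of which 22947 were single regions (42.3% of regions), 6261 had 2 regions, 3215 had 3 to 4, 1008 had 5 to 9 and 155 had 10 or more. Chains of 10 or more held 2047 regions (3.77%). The share depends on how many regions are kept, and with firm H3K27ac peaks alone it was 38.0%. Close neighbours were not particular to these regions. The median gap within a class was 8.13 kb for shared distal regions with a small H3K4me3 peak. Without H3K4me3 it was 4.05 kb for ESC-only and 20.2 kb for iPSC-only regions, and classes with more regions had shorter gaps. Whether the neighbours exceed those of random placement was not tested.

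The chain with the most regions, 33 over 110 kb, ran from 124334869 to 124444780 of chromosome 11. H3K27ac covered 13.0% of it in iPSC and 31.9% in ESC, while H3K27me3 covered 0% and 0.374%. The next, with 31 regions over 117 kb, ran from 96231668 to 96348806 of chromosome 15, with H3K27ac over 14.3% in iPSC and 23.7% in ESC. The third held 28 regions at 3818010 to 3930702 of the same chromosome, with H3K27ac over 9.73% in iPSC and 38.5% in ESC. Each of these 3 chains had 1 H3K4me3 domain inside. Chains of 27 regions lay at 16709479 to 16846913 of chromosome 16, where H3K27ac covered 6.47% in iPSC and 16.5% in ESC, and at 34721142 to 34819817 of chromosome 3, where it covered 12.7% and 33.1%. The one on chromosome 3 was 101 kb from the nearest domain. In all 5 chains H3K27ac covered more in ESC, as over the autosomes, and H3K9me3 covered 2.25% or less in iPSC and 6.01% or less in ESC.

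The regions were spread over the autosomes with moderate differences between chromosomes. There were 20.8 ± 2.28 per Mb (SD over 20 autosomes), with 27.2 on chromosome 10 as the highest and 16.6 on chromosome 19 as the lowest. The density did not follow that of H3K4me3 domains by chromosome, with Spearman's rho 0.125 and Pearson's r 0.0294 over 20 autosomes. Chromosome 19 had the most domains per Mb, 23.3, and the fewest regions. It was also low in iPSC-only regions without H3K4me3, with 4.65 per Mb against 12.3 ± 2.19 over the 20, but not in ESC-only regions, with 56.0 per Mb against 54.5 ± 6.01. Of its iPSC distal regions without H3K4me3, 78.1% were in both lists, the highest share, and of those of ESC 22.9%, the lowest.

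By 1 Mb bins the number ran from 0 to 124, with a median of 19, and 22 of 2584 bins held 0. Bins with more domains held more regions, 13.9 ± 8.24 in the 48 bins with 0 domains and 25.2 ± 14.2 in the 408 bins with 21 to 46 domains (SD over bins). Over all 2584 bins the relation was weak, with Spearman's rho 0.167 and Pearson's r 0.191. Bins with more H3K9me3 held fewer regions. When the bins were ranked into 5 groups by iPSC H3K9me3, the mean was 25.9, 21.8, 20.4, 19.5 and 16.9 regions from the lowest to the highest coverage, and by ESC H3K9me3 25.5, 21.7, 20.2, 19.2 and 17.9. The SD between bins of 1 group was 9.88 to 12.7 regions, more than the difference between neighbouring groups. In the 29 bins where iPSC H3K9me3 coverage was at least 20 points above that of ESC, there were 4.24 ± 6.20 regions per bin, against 21.1 ± 11.6 in the other 2555. No counts by bin of all merged H3K27ac regions or of the other distal classes were at hand. It cannot be said whether these differences between bins are particular to the shared distal regions. The densest bin, chosen after its values were seen, was 34 to 35 Mb of chromosome 3, with 124 regions and 15 domains.

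Regions just inside the limits of the rule differed little in height from those just outside, apart from the limit on H3K4me3 overlap, where those left out had lower medians. The 816 shared regions without H3K4me3 at over 1 to 1.5 kb from a domain had a median fold of 2.68 in iPSC and 3.02 in ESC, and the 938 at 0.5 to 1 kb, which the rule left out, 2.73 and 2.98. The 297 with a H3K4me3 peak within 100 bp had 2.70 and 3.00, and the 406 left out for at most 100 bp of H3K4me3 had 2.53 and 2.74. The 304 within 1 kb of a H3K4me3 stretch of 1.8 to under 2 kb had 2.82 and 3.09, and the 262 left out beside a domain of 2 to under 2.2 kb had 2.77 and 2.92.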

How the data were processed

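Peaks were called with MACS2, and SAMtools 1.10, Picard and deepTools were used, per the submitters' processing notes. Not given in the sources used here: aligner, genome build, thresholds, and how libraries were combined. The authors deposited 1 list per cell type and mark, 8 in all, narrow for H3K27ac and H3K4me3 and broad for the others. Each deposited list gives a fold enrichment (a ratio over background) and a −log10 q for every peak, the narrow ones also a summit. The lowest deposited −log10 q was 1.30 in narrow and 1.00 in broad lists. The 8 columns of −log10 p were not used. Both are the authors' own values for a peak, used within a list for description, ranking and filtering. They are not counts, and depth is unknown.

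Intervals were merged and compared with numpy 2.4.6 and pandas 2.3.3, and intervals computed with scipy 1.17.1, after the interval code was checked on simulated peaks. An overlap was at least 1 bp. The height of a region was that of its peak with the highest fold in each list. Chromosome lengths were the furthest peak end in any list. For 12 of 21 chromosomes the last gene of the gene table at hand (Panubis1.0) lay over 5 Mb from the last peak, so genes were not used, and no genome sequence was used. Regions named are the 10 with the highest lower percentile of fold, the 5 widest, the 5 chains with the most regions and the 3 widest with full H3K27me3 cover in both lists, of which there were 0. The members, classes and measures were chosen with earlier results of these data known.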

Additional observations from a re-analysis of the deposited data

How the results depend on the processing

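The alternatives gave 45 values, of which 20 stayed within the interval of the reported value, or within 1.5 times for counts. With firm H3K27ac peaks alone there were 24070 regions, with iPSC H3K27me3 on 0.806%, an acetylated nearest domain for 66.0% in iPSC and 80.2% in ESC, a neighbour within the stitching distance for 38.0% and a median summit offset of 14 bp. With the autosomal ESC list cut by −log10 q to the length of the iPSC list these were 34451 regions, 65.4%, 80.0% and 47.2%, and 17 bp. With domains of firm H3K4me3 peaks the nearest domain was acetylated for 66.0% in iPSC, and 58.2% had a neighbour. Over 5 kb from a domain the values were 64.2% in iPSC, 78.6% in ESC and 55.8%. When only firm peaks of the other mark counted, H3K27me3 lay on 0.299% in iPSC and 0.107% in ESC, and H3K9me3 on 1.73% and 4.82%. When 50% of a region had to be covered, these were 0.644%, 0.227%, 2.35% and 5.64%. Within 5 kb, 36.4% had a neighbour. Under these alternatives the shares of H3K27me3 in both lists and of H3K9me3 in iPSC stayed under those of the other 3 distal classes. The ESC H3K9me3 share was above that of iPSC-only regions as reported and with lists of equal length, domains of firm peaks and 5 kb, and below it with firm H3K27ac (7.13% against 7.28%), firm H3K9me3 and 50% cover. The cause was not tested.

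Depth is unknown, no list has a replicate, and the ESC H3K27ac list is longer than that of iPSC, so differences between iPSC and ESC have no measured error from lines or cultures. No paired analysis was possible because the lists, 1 per cell type and mark, carry no replicate numbers.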

Other observations

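The X chromosome, which the rule leaves out, held few H3K27ac regions of any kind, 34.2 merged regions per Mb against 165 per Mb on the autosomes. By the same steps 232 of its 4915 regions (4.72%) were in both lists, distal and without H3K4me3, against 12.7% of regions on the autosomes. Per Mb that was 1.61 on the X and 20.9 on the autosomes. The X had 1015 H3K4me3 domains.

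The number of summits around the shared distal regions varied little with distance in either list, and regular spacing was not tested. Counted in steps of 100 bp from 400 to 2000 bp on both sides of the strongest summit, other H3K27ac summits numbered 1699 ± 58.3 per step in iPSC and 2985 ± 137 in ESC (SD over steps). The range was 1594 to 1803 in iPSC and 2742 to 3206 in ESC. Peaks that lie closer are merged by the caller, so spacing at the scale of neighbouring nucleosomes cannot be read from these lists.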
